A study of Sus scrofa with 6 samples.

Results

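Hair follicle keratins and keratins of simple epithelia are described here across 6 single-cell RNA libraries of skin. The members are 8 of the 32285 genes measured, matched exactly by symbol: the keratins Krt71, Krt75, Krt79, Krt8, Krt18, Krt19 and Krt7, and the follicle gene Prr9, which is not a keratin. They were selected on their measured UMIs in these same libraries, among them the ratios of Krt75 and Prr9 between the libraries labelled irradiated and normal, so every level and ratio below is a description and none is tested. The design text names unsorted cells of pig skin after several radiation regimens, and the labels give red duroc pig for all 6 libraries. The library labelled normal had no treatment and the library labelled irradiated had radiation alone. The other 4 carry labels for a 1 mg skin patch of deferoxamine, an iron chelator. The label pretreatment stands for 2 weeks of patch ahead of radiation, and continuous for 18 weeks over the whole experiment. The label chronic names 4 weeks that follow recovery, and acute names 12 weeks of recovery. The labels give no radiation dose, no animal and no age.

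Keratins are the intermediate filament proteins of epithelia, and each filament pairs a type I with a type II keratin. Basal cells of the epidermis and of the outer root sheath make Krt5 and Krt14, the inner root sheath that moulds the growing hair makes Krt71 with Krt25, Krt27 and Krt28, and Krt75 marks the companion layer between both sheaths. Krt79 marks the hair canal and the ducts of the sebaceous glands, and Krt8, Krt18, Krt19 and Krt7 are the keratins of simple and glandular epithelia, with Krt8, Krt18 and Krt20 also known from Merkel cells.

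There was 1 library for each label, so no spread between replicates could be measured and differences are between libraries, not conditions. All 32285 gene identifiers are mouse Ensembl identifiers and 4 libraries hold 4 anti-mouse hashtag antibodies, which goes against the pig label. Libraries are therefore named by their label throughout, and the differences below are not ascribed to a treatment. After filtering, 1499 to 24132 cells remained per library (83559 in all), with a median of 1385 to 9651 unique molecular identifiers (UMIs, counts of single captured RNA molecules) per cell. The library labelled pretreatment had the fewest cells and the greatest depth per cell. Cells with at least 10 UMIs of Krt14 plus Krt5, called keratin-rich below, numbered 150 (normal), 221 (irradiated), 55 (pretreatment), 225 (continuous), 232 (chronic) and 253 (acute). The keratinocyte markers Epcam and Trp63 were found in 763 and 727 of these 1136 cells, and the leukocyte gene Ptprc in 268. Pairs of libraries shared 3 to 153 cell barcodes, and in 0 of them did both cells carry a member. Intervals are 95% intervals for counting error only (exact Poisson for levels, Clopper-Pearson for shares, exact conditional for ratios).

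Most members were carried by a few cells, and many of those cells had no Krt14 or Krt5 RNA. A cell with at least 3 UMIs of a member is called its carrier: of the 83559 cells, 29 carried Krt71, 16 Krt75, 97 Prr9, 384 Krt79, 19 Krt8, 23 Krt18, 13 Krt19 and 11 Krt7. Cells without any Krt14 or Krt5 UMI held 80.6% of the Krt71 UMIs, 84.0% of those of Krt8, 69.5% of Krt18, 93.5% of Krt19 and 80.9% of Krt7. For Krt75, Prr9 and Krt79 these shares were 17.5%, 33.2% and 10.3%, and keratin-rich cells held 60.5%, 57.6% and 81.5%. Summed over the 6 libraries, a keratinocyte gate on Krt14 or Krt5 thus took in most Krt79 RNA. It left out most of the RNA of Krt71 and of the simple keratins, as in normal and irradiated but not in every library. Cells without Krt14 or Krt5 UMIs held 2 of 13 Krt8 UMIs in pretreatment and 1 of 12 in continuous. They held 2 of 20 in chronic and 4 of 26 in acute. For Krt18 these were 8 of 17, 18 of 74, 12 of 47 and 21 of 59 in the same order. For Krt71 they were 101 of 207 in continuous and 24 of 48 in acute, but most in chronic. Krt19 and Krt7 had 6 of 15 each in continuous and most in the other libraries.

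**Figure D1:**
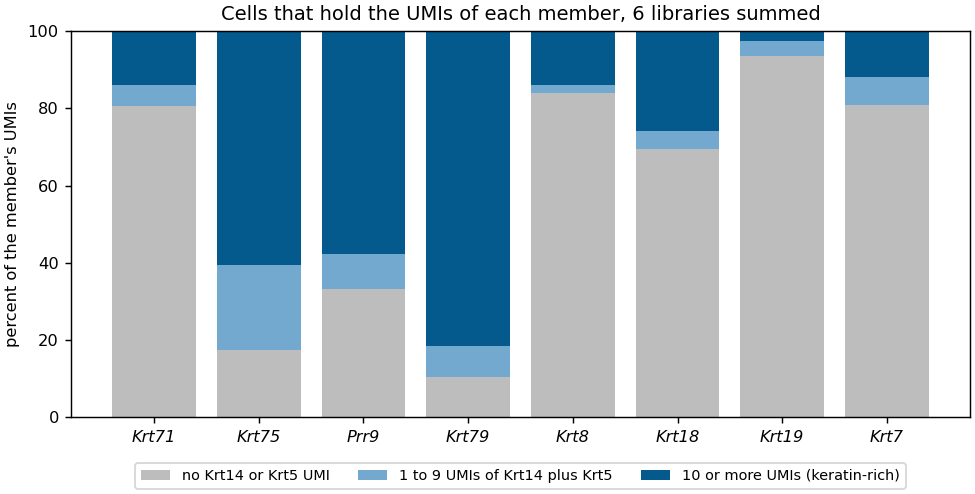
Percent of each member's UMIs (y axis) in kept cells with 0, with 1 to 9 and with 10 or more UMIs of Krt14 plus Krt5, summed over the 6 libraries. Krt71, Krt8, Krt18, Krt19 and Krt7 lie mostly in cells with 0, whereas 81.5% of the Krt79 UMIs lie in keratin-rich cells.

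In a bulk sum of cells, fewer cells of a type and less RNA per cell cannot be told apart, so levels are given beside carrier numbers. Leukocytes, fibroblasts and endothelial cells served as reference sets for stray RNA. They were not keratin-rich and had at least 2 UMIs of Csf3r, Csf1r, Cd3e plus Cd3d plus Cd3g, Pdgfra or Cdh5, at median depths of 1619 to 15289 UMIs. In any library and any of these 5 sets, at most 1.32% of cells had a Krt71 UMI, 0.495% a Krt75 UMI, 0.855% a Prr9 UMI and 6.51% a Krt79 UMI. The highest shares for the simple keratins were 0.418% for Krt8, 4.49% for Krt18, 1.57% for Krt19 and 0.881% for Krt7. The Krt18 value came from 89 Cd3 cells in pretreatment. Over all libraries 40 of 5485 Cd3 cells had a Krt18 UMI, none more than 2, against 4 of 3529 Pdgfra cells. Krt19 went the other way, in 34 of 3529 Pdgfra cells and 5 of 5485 Cd3 cells. Whether this is stray RNA or RNA made by these cells was not tested. The Csf1r set also took in a normal cell with 119 Krt8 UMIs and an irradiated cell with 40 of Prr9.

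Krt71, the keratin of the inner root sheath, was highest in the library labelled chronic and was not detected in pretreatment. Its UMIs in all kept cells numbered 46 (normal), 291 (irradiated), 0 (pretreatment), 207 (continuous), 1823 (chronic) and 48 (acute). These are 1.14, 5.36, 0, 5.17, 49.5 and 0.984 CPM in the same order, where CPM is the UMIs of a gene per 1000000 UMIs of the cells summed. The carriers behind these sums were 2, 4, 0, 7, 14 and 2 cells.

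Single cells dominated the Krt71 sums. In chronic 1 cell held 971 of the 1823 UMIs (53.3%), and the next held 212 and 204. In irradiated 1 cell held 244 of 291 (83.8%). Per 10000 kept cells there were 15.3 Krt71 carriers in chronic (8.34 to 25.6), 7.85 in continuous (3.16 to 16.2), 1.81 (irradiated), 1.13 (normal) and 0.829 (acute). The intervals of chronic and continuous overlapped, as did those of continuous with irradiated and normal, and those of irradiated, normal and acute with one another. With 0 carriers among 1499 cells, the pretreatment interval reaches up to 24.6 per 10000, above the chronic share. Its lack of carriers is thus within what so few cells can miss.

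The 29 Krt71 carriers had the inner root sheath RNAs that were not used to choose them. All 29 had Krt25 UMIs, the type I partner keratin, at 5506 CPM against 60.4 in keratin-rich cells. Krt27 was found in 25 cells, Krt28 in 23, Krt73 in 14 and Tchh, which encodes the trichohyalin granules of the inner root sheath, in 23. Of 9 matched inner root sheath genes (Krt25, Krt26, Krt27, Krt28, Krt72, Krt73, Tchh, Tchhl1, Padi3), 8 were detected and Tchhl1 was at 0. Their summed level was 12556 CPM in the carriers and 122 in keratin-rich cells. The transcription factors Gata3 and Dlx3, both known from the inner root sheath and hair matrix, were each found in 26 of the 29.

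Krt71 carriers had little of the basal keratins. Krt14 was found in 9 of 29 carriers and Krt5 in 14, and 14 had neither. The chronic cell with 971 Krt71 UMIs had 12751 UMIs in all, 761 of Krt25, 362 of Krt27, 573 of Tchh and 0 of Krt14 and Krt5. The second chronic cell, with 88094 UMIs and 212 of Krt71, had 34 of Krt5 and 2 of Krt14. Hair shaft genes were scarce in the carriers, with 3 of 14 detected at 82.4 CPM in sum. Scrublet scores marked 4 of the 29 as doublets, 10 had a Ptprc UMI, and their neutrophil list level was 3516 CPM against 8804 in keratin-rich cells.

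**Figure D2:**
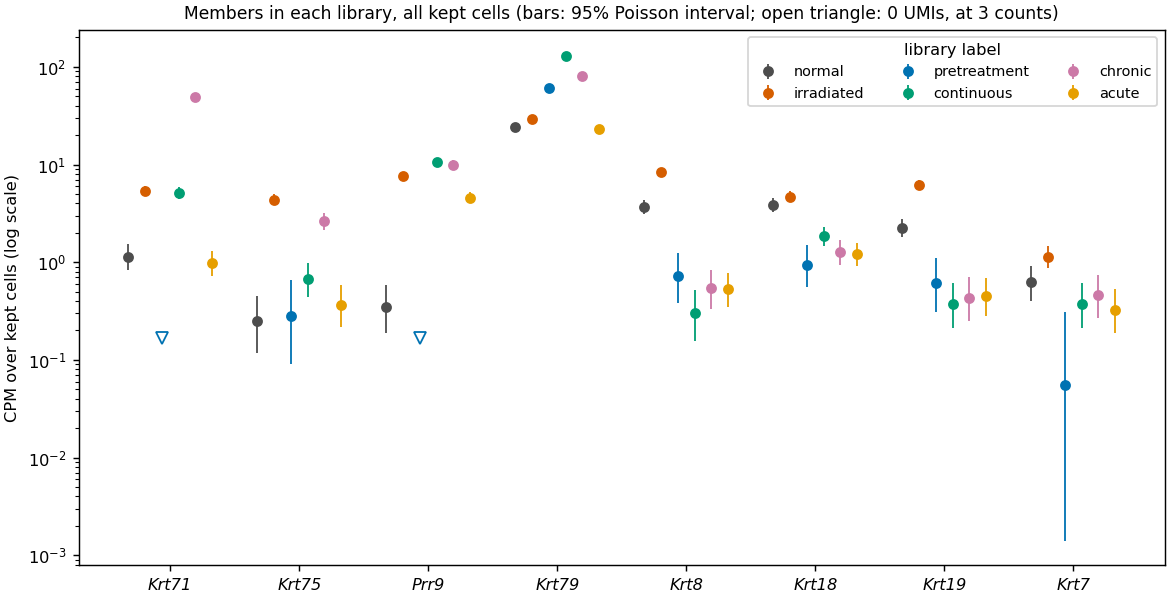
CPM over kept cells (log y axis) for each member in the 6 libraries, coloured by label, with 95% Poisson bars; open triangles stand at 3 counts where the UMI count was 0. Krt71 reaches 49.5 in chronic, Krt79 reaches 130 in continuous, and Krt8, Krt18, Krt19 and Krt7 are highest in irradiated.

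Krt75, the companion layer keratin, rested on a few cells. Its UMIs numbered 10 (normal), 238 (irradiated), 5 (pretreatment), 27 (continuous), 97 (chronic) and 18 (acute), or 0.248, 4.38, 0.279, 0.674, 2.63 and 0.369 CPM. Carriers numbered 0, 5, 0, 3, 7 and 1. In irradiated 1 keratin-rich cell held 171 of the 238 UMIs (71.8%). By carriers per 10000 cells chronic was ahead, with 7.63 (3.07 to 15.7) against 2.26 (0.734 to 5.27) in irradiated, and these intervals overlapped.

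The irradiated cell with 171 Krt75 UMIs had 35228 UMIs, 313 of Krt17, 37 of Krt5, 1 of Krt14, 1 of Krt71 and 0 of Krt25. A second irradiated carrier, with 23 Krt75 UMIs, had 50 of Krt5, 45 of Krt17, 17 of Krt25 and 9 of Krt28. Krt17, a keratin of the outer root sheath and companion layer, was found in 14 of the 16 Krt75 carriers at 3262 CPM, against 1783 in keratin-rich cells. In chronic, 1 Krt75 carrier had 87 UMIs of Krt25 and another had 112 of Tchh with 33 of Prr9, so RNAs of the inner root sheath and Krt75 were met in the same cells. Only 2 of the 16 Krt75 carriers were also Krt71 carriers.

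**Figure D3:**
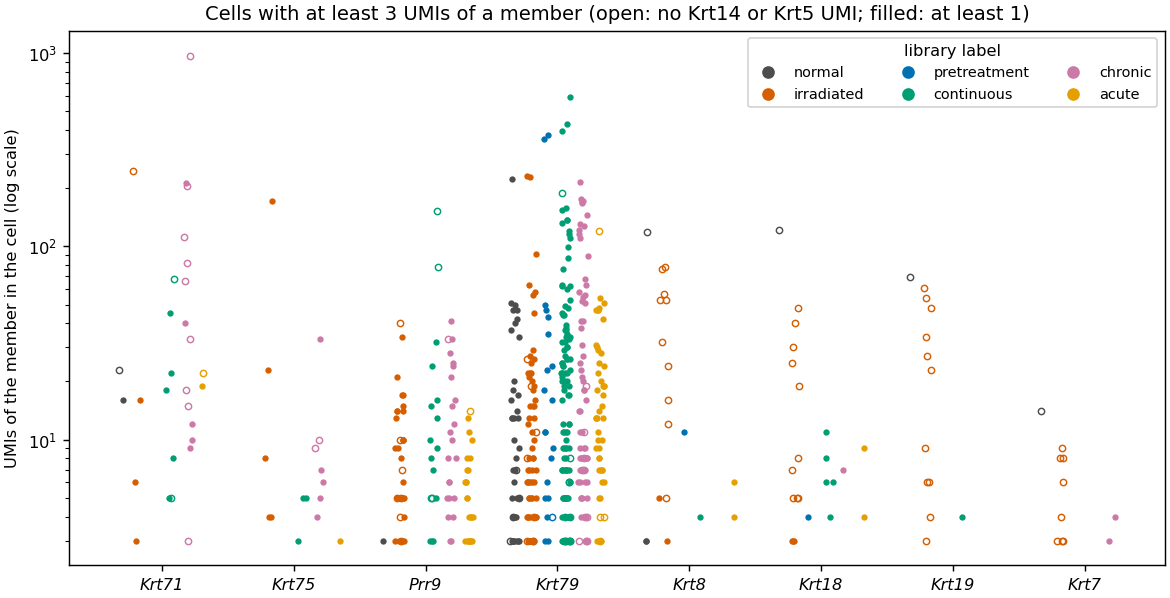
UMIs of a member in each cell with at least 3 of them (log y axis), by member and by library label; open points have no Krt14 or Krt5 UMI and filled points have at least 1. Single points reach 971 for Krt71 in chronic and 171 for Krt75 in irradiated, while the Krt79 carriers fill the range in every library.

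Prr9, a small gene of the epidermal differentiation complex on which many cornified envelope genes lie, was found in cells with and without inner root sheath keratins. Its UMIs numbered 14 (normal), 418 (irradiated), 0 (pretreatment), 425 (continuous), 368 (chronic) and 224 (acute), or 0.347, 7.69, 0, 10.6, 9.98 and 4.59 CPM. Carriers numbered 1, 32, 0, 17, 23 and 24. Unlike Krt71 and Krt75, no cell held more than 11.1% of the UMIs in irradiated, chronic or acute, while 1 cell held 35.8% in continuous. Per 10000 cells the carriers came to 0.565 in normal, 14.5 in irradiated (9.90 to 20.4), 19.1 in continuous (11.1 to 30.5), 25.1 in chronic (15.9 to 37.6) and 9.95 in acute (6.37 to 14.8). Normal lay below these 4, whose intervals overlapped except for those of chronic and acute. Pretreatment had 0 of 1499, with an interval of up to 24.6 per 10000.

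The split of the Prr9 carriers was made after their values were seen. In 18 of the 97 there were at least 3 UMIs of other inner root sheath keratins, and Prr9 itself stood at 1497 CPM. Tchh, which the split did not use, was found in 11 of the 18 at 2734 CPM, and 7 of the 18 had no Krt14 or Krt5 UMI. The strongest was a continuous cell with 152 Prr9 UMIs, 103 of Krt72, 90 of Krt28, 75 of Krt73 and 0 of Krt71. Another continuous cell had 78 of Prr9 beside 68 of Krt71.

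The other 79 Prr9 carriers had under 3 such UMIs by the split itself. Tchh was found in 14 of them at 16.1 CPM, against 24.6 in keratin-rich cells. They had Prr9 at 557 CPM, and 60 of the 79 were keratin-rich. Krt14 stood at 3818 and Krt17 at 1494 CPM in them, and Epcam at 601 against 354 in keratin-rich cells. The sebaceous list was low in them, at 221 CPM against 4170. Col1a1, a fibroblast collagen, was found in 41 of these 79 cells at 1003 CPM, against 189 in keratin-rich cells, and the part of fibroblast RNA in these cells was not tested.

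Krt79 was the member in the most cells and was found in every library. Its UMIs numbered 969 (normal), 1587 (irradiated), 1097 (pretreatment), 5210 (continuous), 2938 (chronic) and 1140 (acute). The levels were 24.0, 29.2, 61.1, 130, 79.7 and 23.4 CPM, and carriers numbered 42, 71, 21, 129, 73 and 48. Per 10000 cells the carriers came to 145 in continuous (121 to 172), 140 in pretreatment (86.9 to 213), 79.5 in chronic (62.4 to 99.9), 32.1 in irradiated (25.1 to 40.5), 23.7 in normal (17.1 to 32.0) and 19.9 in acute (14.7 to 26.4). Pretreatment overlapped continuous and chronic, and normal, irradiated and acute overlapped one another. Continuous and pretreatment were also deepest per cell, with medians of 3267 and 9651 UMIs, and neither holds hashtag features; the part of these in the order was not tested.

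The share of keratin-rich cells with a Krt79 UMI was 26.0% (normal), 29.9% (irradiated), 30.9% (pretreatment), 52.9% (continuous), 27.6% (chronic) and 20.6% (acute). The continuous interval, 46.1% to 59.6%, lay above those of the other 5, the nearest being pretreatment at 19.1% to 44.8%. After each cell was thinned to 1000 UMIs, with 0 to 8 shallower cells left out per library, the shares were 16.9%, 17.3%, 16.4%, 25.3%, 19.6% and 12.0%. Continuous stayed highest, but its interval, 19.7% to 31.6%, then lay above that of acute alone (8.28% to 16.8%) and overlapped the other 4.

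The Krt79 carriers fell into cells with sebaceous RNA and cells with infundibulum RNA, a split also made after the values were seen. The sebaceous list (11 lipid genes, among them Scd1, Mgst1, Elovl3, Awat1, Soat1, Far2 and Fa2h) outweighed the infundibulum list (Krt17, Lrig1, Gata6, Plet1, Cst6 and Defb6) in 172 of 384 carriers, and the reverse held in 205. In 311 of the 384 the larger list made up at least 90% of both. The sebaceous-type carriers had Krt79 at 1486 CPM, Krt14 at 2336 and Krt5 at 365. The infundibulum-type carriers had Krt79 at 2678, Krt14 at 3703 and Krt5 at 1671 CPM. Krt6a, a keratin of the hair canal and of wounded epidermis, stood at 123 and 2245 CPM in the same order.

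The mix of the 2 kinds differed between libraries. The sebaceous type made up 63.6% of the Krt79 carriers in continuous (54.6% to 71.9%) and 66.7% in pretreatment (43.0% to 85.4%). It made up 31.0% in normal (17.6% to 47.1%), 29.6% in irradiated (19.3% to 41.6%), 32.9% in chronic (22.3% to 44.9%) and 37.5% in acute (24.0% to 52.6%). The continuous interval lay above those of normal, irradiated, chronic and acute without overlap, and that of pretreatment overlapped normal, chronic and acute. Within the infundibulum type Krt79 stood at 1550 CPM (normal), 2297 (irradiated), 2546 (pretreatment), 3927 (continuous), 2738 (chronic) and 1799 (acute). Within the sebaceous type it ranged from 1099 in irradiated to 1596 in continuous. Ptprc UMIs were present in 35 sebaceous-type and 51 infundibulum-type carriers, and Scrublet marked 16 of all 384.

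Krt8, Krt18, Krt19 and Krt7, the simple keratins, were highest in the library labelled irradiated. Krt8 UMIs numbered 149 (normal), 456 (irradiated), 13 (pretreatment), 12 (continuous), 20 (chronic) and 26 (acute). Krt18, the partner of Krt8, had 155, 255, 17, 74, 47 and 59 UMIs. Krt19 had 91, 335, 11, 15, 16 and 22 UMIs, and Krt7 25, 62, 1, 15, 17 and 16. In CPM, irradiated reached 8.39 for Krt8, 4.69 for Krt18, 6.17 for Krt19 and 1.14 for Krt7. Normal was second for all 4, but 1 cell held 119 of its 149 Krt8 UMIs and 121 of its 155 Krt18 UMIs.

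Much of this RNA lay in 12 cells with at least 3 UMIs of Krt8 plus Krt18 and none of Krt14 or Krt5, 1 in normal and 11 in irradiated. Of the UMIs in all 6 libraries they held 525 of 676 for Krt8, 315 of 607 for Krt18, 338 of 490 for Krt19 and 58 of 136 for Krt7. In irradiated the 11 cells held 89.0% of the Krt8 UMIs, 76.1% of those of Krt18, 80.3% of Krt19 and 71.0% of Krt7. In irradiated, 10 of the 11 had Krt8, Krt18 and Krt19 together, with 5 to 78 UMIs of Krt8. The remaining cell had 5 UMIs of Krt18, 0 of the other 3 members and of Epcam, Aqp5, Cldn3, Cldn7 and Elf5, and 18.6% mitochondrial UMIs. Of the 13 Krt19 carriers 10 were also Krt8 carriers, and 8 of the 11 Krt7 carriers were. No Krt71 or Krt75 carrier was a carrier of any simple keratin. The other 4 libraries had 0 such cells. Irradiated had 4.97 per 10000 (2.48 to 8.89). The Clopper-Pearson intervals of these 4 reach up to 24.6 in pretreatment, 4.14 in continuous, 4.02 in chronic and 1.53 in acute. The interval of irradiated lay above that of acute and overlapped those of pretreatment, continuous and chronic. It also overlapped that of normal, which had 0.565 per 10000 (0.0143 to 3.15).

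The 12 cells had RNAs known from glandular epithelium. All 12 genes of that list were detected, at 6766 CPM in sum against 631 in keratin-rich cells. The normal cell held 39893 of the 126365 UMIs of the 12 cells, so it weighs most in these pooled levels. Prlr, the prolactin receptor, was found in 11 of the 12 and stood at 2010 CPM over all 12, against 65.1 in keratin-rich cells. The epithelial genes Epcam and Cldn4 stood at 1504 and 1456 CPM, each in 11 cells. Foxa1, a transcription factor of glands, was found in 8 and Aqp5, the water channel of secretory glands, in 7. Csn3, a milk casein gene, was found in 3 and Elf5, a factor of mammary and salivary epithelium, in 2. Trp63, the basal keratinocyte factor, was at 0 in all 12.

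Markers of other cell types known for simple keratins were scarce in these cells. Of 7 Merkel cell genes 6 were at 0 (Atoh1, Sox2, Krt20, Isl1, Chga and Pou4f3), and Piezo2 was found in 6 cells. Of 8 mesothelial genes 7 were at 0, and the exception was Muc16. All 6 melanocyte genes, all 9 inner root sheath genes and all 14 hair shaft genes were at 0. The normal cell had 39893 UMIs, 78 of Epcam and 17 of Aqp5, and 2 of the macrophage gene Csf1r. Scrublet marked 2 of the 12 as doublets and 3 had a Ptprc UMI, and the neutrophil list stood at 4258 CPM in them. All 11 irradiated cells had HashTag7 as their leading tag, as did 90.4% of the kept cells of that library, and no source ties tags to animals.

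**Figure D4:**
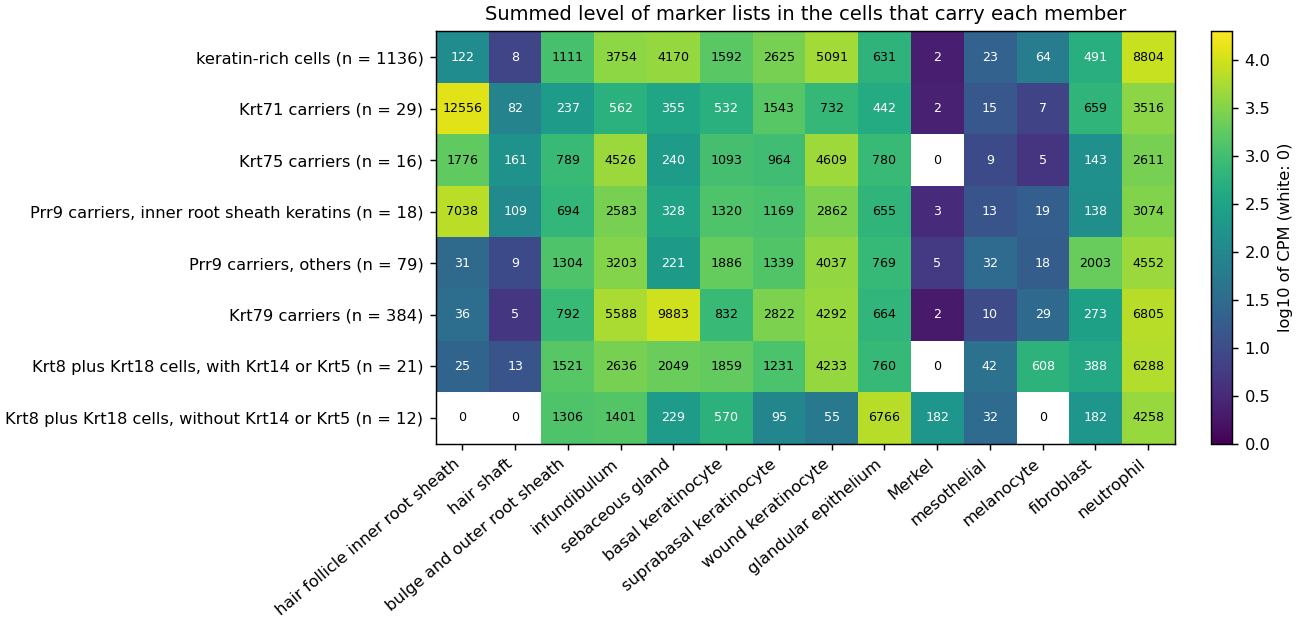
Summed level of 14 marker lists (columns; CPM, printed and coloured on a log10 scale, white for 0) in keratin-rich cells and in the cells that carry each member (rows, with their number), all libraries pooled. Krt71 carriers reach 12556 for the inner root sheath list, Krt79 carriers 9883 for the sebaceous list, and cells with Krt8 plus Krt18 and no Krt14 or Krt5 reach 6766 for the glandular list.

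Within keratin-rich cells the simple keratins were a different, thin signal. Krt8 UMIs were found in 6.67% of them (normal), 6.33% (irradiated), 1.82% (pretreatment), 2.67% (continuous), 6.47% (chronic) and 4.35% (acute). For Krt18 these shares were 6.67%, 6.79%, 5.45%, 8.0%, 9.48% and 6.72%. Both exceeded the 0.418% and 4.49% seen at most in the leukocyte, fibroblast and endothelial sets, though the Krt18 intervals of all but chronic and continuous took in 4.49%, and the Krt8 interval of pretreatment took in 0.418%. Krt19 was found in 0% to 1.78%, against up to 1.57% in the Pdgfra set. The 1.78% in continuous has an interval of 0.486% to 4.49% that takes in 1.57%, so these shares are not told apart from that of the Pdgfra set. The 21 cells with at least 3 UMIs of Krt8 plus Krt18 and with Krt14 or Krt5 UMIs had a glandular list level of 760 CPM, near that of keratin-rich cells. A pretreatment cell with 169291 UMIs and 11 of Krt8 also held 419 of the melanocyte list. Outside these 12 cells, an irradiated cell with 4 Krt19 UMIs held 1850 of the fibroblast list, and another with 3 of Krt7 held 494.

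Between the libraries labelled irradiated and normal, the members that differed most in keratin-rich cells were Krt75 and Prr9, the values behind the choice of members. Prr9 had 250 UMIs in irradiated against 9 in normal, 133 against 7.56 CPM, a ratio of 17.6 (9.14 to 39.0). Krt75 had 210 against 3, a ratio of 44.4 (15.0 to 217), and 1 irradiated cell held 81.4% of the 210. Without the cell with the most Krt75 UMIs in each library, the log2 ratio went from 5.47 to 4.65. Krt71 had 5 UMIs against 19, and so was 5.99-fold lower in irradiated (2.16 to 20.5). In normal 1 cell held 84.2% of the 19, and without the cell with the most in each library 2 UMIs stood against 3 and gave no ratio.

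That direction of Krt71 held in keratin-rich cells and turned in all kept cells, where the log2 ratio was 2.23 towards irradiated. Krt79 stood at 667 and 635 CPM, a ratio of 1.05 (0.959 to 1.15). Krt8 had a ratio of 0.846 (0.412 to 1.78) and Krt18 of 1.33 (0.621 to 3.01). Krt19 and Krt7 had under 20 UMIs over both libraries, as in every comparison, and got no ratio. Of the 6 members with at least 20 UMIs, 2 were at least 2-fold higher and 1 at least 2-fold lower, where 4.32% and 3.57% of the 9562 genes measured were (7.89% in either direction). As the choice used this comparison, nothing is read from that count.

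The gene lists of the follicle moved unevenly between irradiated and normal. Of 6 infundibulum genes 1 was at least 2-fold higher, Cst6, a cystatin of the cornifying hair canal, with 1448 against 276 CPM, and 1 was lower, the transcription factor Gata6. Of 4 inner root sheath genes tested none was higher and 1 was lower, Krt25, at 16.0 against 34.4 CPM. In normal 1 cell, which also held 16 Krt71 UMIs, held 85.4% of the Krt25 UMIs, and without the cell with the most in each library the log2 ratio turned from -1.11 to 0.45. Of 11 suprabasal genes 7 were lower, with a median log2 ratio of -1.10 against 0.0037 over all genes. Lor, the cornified envelope protein loricrin, had 2 UMIs against 88, and 1 normal cell held 96.6% of the 88. Of 7 glandular genes 1 was higher and 1 lower. Wfdc18, a secreted whey acidic protein, had 64 UMIs against 4, and Cldn7, a tight junction claudin, 3 against 17. Markers of other cell types differed too in these keratin-rich cells. Of 5 fibroblast genes 2 were lower, Col1a1 by 3.95-fold and Col3a1 by 4.87-fold, and of 3 melanocyte genes 2 were lower, Pmel by 14.7-fold and Dct by 13.7-fold. Of 6 macrophage genes 4 were higher, as were 1 of 5 neutrophil genes and 2 of 4 erythroid genes, among them Hbb-bs with a ratio of 2.34. Their part in the results of this comparison was not tested.

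The other 4 libraries were each set against the irradiated library, so they share that control and a high value in it lowers all 4 ratios at once. This holds most for Krt75, whose 210 UMIs in irradiated keratin-rich cells lay mostly in 1 cell. Krt75 and Prr9 were also chosen with their high ratios of irradiated to normal known. Low ratios of both against irradiated are thus partly built in, and nothing is read from the counts of members in these 4 comparisons. Against irradiated, Krt75 stood at 0 UMIs in pretreatment, 7 in continuous, 12 in chronic and 7 in acute. In pretreatment it was 52.0-fold lower at a floor of 3 counts over the library, and at least 41.9-fold lower by the exact interval. The fold by which it was lower was 55.5 in continuous (26.4 to 140), 29.6 in chronic (16.6 to 58.1) and 32.9 in acute (15.7 to 82.7). Without the cell with the most Krt75 UMIs in each library the value at that floor in pretreatment fell to 9.79-fold. The log2 ratios were then -4.19 in continuous, -3.05 in chronic and -3.43 in acute. Without the 5 such cells no ratio was left, since both counts were at or under 3.

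Pretreatment had no Prr9 or Krt75 RNA in its keratin-rich cells, and a Krt79 level that rested on a few cells. Prr9 had 0 UMIs against 250, 61.8-fold lower at the same floor and at least 49.9-fold lower by the exact interval. With 55 keratin-rich cells, the interval of 0 cells reaches up to 6.49%, before and after thinning. That lay below the 19.0% in irradiated and took in the 5.61% in irradiated after thinning. Krt79 stood at 702 CPM against 667, a ratio of 1.05 (0.967 to 1.15). However, 1 cell held 38.5% and 5 cells 88.8% of the 977 Krt79 UMIs in pretreatment, against 18.5% and 53.6% in irradiated. Without the 5 cells with the most in each library the log2 ratio went from 0.074 to -1.37. Krt8 stood at 7.90 CPM against 10.7, with all 11 pretreatment UMIs in 1 cell. Krt18 had 7 UMIs against 23, 2.44-fold lower (1.01 to 6.73), and this turned to a log2 ratio of 0.29 with UMIs per cell in place of CPM. Of 5 members with enough UMIs none was at least 2-fold higher and 3 were lower, where 12.8% and 21.8% of 9736 genes were (34.6% in either direction).

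Sebaceous RNA was high and wound keratin RNA low in the pretreatment keratin-rich cells. Of 10 sebaceous genes tested 9 were at least 2-fold higher and none lower, with a median log2 ratio of 2.65 against -0.19 over all genes. Scd3, a fatty acid desaturase, had 72 UMIs against 7, a ratio of 13.9 (6.39 to 35.7). Without the cell with the most in each library the ratio was 23.2, on fewer than 7 UMIs in irradiated. All 6 wound keratinocyte genes were lower, among them Krt6a, with 5 UMIs against 3996. Of 6 infundibulum genes 1 was higher, Gata6, and 3 were lower, Krt17, Plet1 and Cst6, the last by 24.0-fold. Of 3 inner root sheath genes none was higher and 2 were lower, Krt28 and Krt25, which had 0 UMIs against 30. Markers of other cell types moved in the same cells: all 5 neutrophil genes were lower (median log2 ratio -7.32), as were all 6 macrophage genes (-5.78) and 4 of 5 fibroblast genes (-2.44), while 4 of 5 melanocyte genes were higher (4.63). Of the melanocyte list, 419 UMIs lay in a single keratin-rich pretreatment cell with 169291 UMIs. The part of these other cell types in the differences was not tested.

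Continuous had more Krt79 and Krt71 and less Prr9 and Krt8 than irradiated in keratin-rich cells. Krt79 stood at 1233 CPM against 667, a ratio of 1.85 (1.74 to 1.97), and without the 5 cells with the most Krt79 in each library the log2 ratio rose from 0.89 to 1.23. Krt71 had 51 UMIs against 5, a ratio of 5.52 (2.22 to 17.7), and 1 cell held 88.2% of the 51. Without the cell with the most in each library 6 UMIs stood against 2, a log2 ratio of 0.68. Of 4 inner root sheath genes 1 was at least 2-fold higher, Krt25, with 161 UMIs against 30, and none was lower. Krt8 had 11 UMIs against 20, 3.36-fold lower (1.54 to 7.77). The shares of cells with a Krt8 UMI, 2.67% (0.985% to 5.71%) against 6.33% (3.51% to 10.4%), had overlapping intervals. Prr9 had 145 UMIs against 250, 3.19-fold lower (2.59 to 3.94).

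The Prr9 and Krt71 directions depended on the cells summed. In all kept cells the log2 ratio of Prr9 was 0.46 and in cells with at least 0.5% of UMIs from Krt14 plus Krt5 it was 0.32, both towards continuous. That of Krt71 in all kept cells was -0.052. Of 6 members 1 was at least 2-fold higher and 3 were lower, where 9.2% and 11.9% of 10785 genes were (21.1% in either direction). All 11 sebaceous genes were at least 2-fold higher, with a median log2 ratio of 2.30 against -0.10 over all genes. Awat1, a wax ester synthase, had 276 UMIs against 13, a ratio of 11.5. Without the cell with the most in each library the ratio was 33.8, on fewer than 13 UMIs in irradiated. Of 6 wound keratinocyte genes 5 were lower, and Krt17 was within 2-fold; Krt6a stood at 758 CPM against 2129.9. Of 6 infundibulum genes none was higher and 1 was lower, Plet1, at 529 against 1216 CPM. Of the other cell types, 2 of 5 neutrophil, 3 of 6 macrophage, 2 of 5 fibroblast and all 4 erythroid genes were lower, and their part was not tested.

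In chronic the inner root sheath RNA stood out. Krt71 had 256 UMIs against 5 in irradiated, a ratio of 30.3 (12.8 to 94.1), and 1 cell held 82.8% of the 256. Without the cell with the most Krt71 UMIs in each library the log2 ratio went from 4.92 to 3.72. Of 4 inner root sheath genes tested 3 were at least 2-fold higher, Krt25, Krt27 and Krt28, with a median log2 ratio of 1.91 against -0.20 over all genes. Krt25 had 532 UMIs against 30 and Krt28 210 against 25, and the cell with 212 Krt71 UMIs held 278 and 103 of these.

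Other members differed less between chronic and irradiated. Prr9 stood at 95.9 CPM against 133, a ratio of 0.720 (0.607 to 0.854), and Krt79 at 788 against 667, a ratio of 1.18 (1.10 to 1.27). Krt8 was 1.99-fold lower (0.989 to 4.04) and Krt18 had a ratio of 0.824 (0.467 to 1.47). Of 6 members 1 was at least 2-fold higher and 1 lower, where 3.15% and 8.76% of 10483 genes were (11.9% in either direction). Of 9 sebaceous genes 3 were higher, Scd3, Mgst1 and Awat1, and none lower, and all 6 wound keratinocyte genes were within 2-fold. Of the other cell types, 3 of 5 neutrophil, 5 of 6 macrophage and 3 of 5 fibroblast genes were lower and 2 of 3 melanocyte genes higher, and their part was not tested.

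In acute, Prr9 and Krt79 were both lower than in irradiated. Prr9 had 127 UMIs against 250, 2.16-fold lower (1.73 to 2.69), yet the shares of keratin-rich cells with a Prr9 UMI were 17.8% and 19.0%, and after thinning 5.62% and 5.61%. Thinned counts gave a log2 ratio of 0.14. Krt79 stood at 383 CPM against 667, 1.74-fold lower (1.59 to 1.90). Krt8 had a ratio of 0.959 (0.495 to 1.86) and Krt18 of 1.31 (0.746 to 2.34).

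Of 5 members none was at least 2-fold higher and 2 were lower in acute, where 2.46% and 3.49% of 10077 genes were (5.95% in either direction). Of 6 infundibulum genes none was higher and 2 were lower, Cst6 by 29.2-fold and Defb6, a defensin, by 3.28-fold. Of 9 sebaceous genes 2 were higher, Scd3 and Awat1, and none lower. Of 5 hair matrix genes 4 were lower, Foxn1, Dlx3, Msx2 and Hoxc13, the last a homeobox factor of hair keratin genes, with 14 UMIs against 45. Of 4 inner root sheath genes none was higher and 1 was lower, Krt28, with 2 UMIs against 25. Of the other cell types, none of 5 neutrophil or 6 macrophage genes passed 2-fold, 2 of 5 fibroblast genes were higher and all 4 erythroid genes lower, and their part was not tested.

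**Figure D5:**
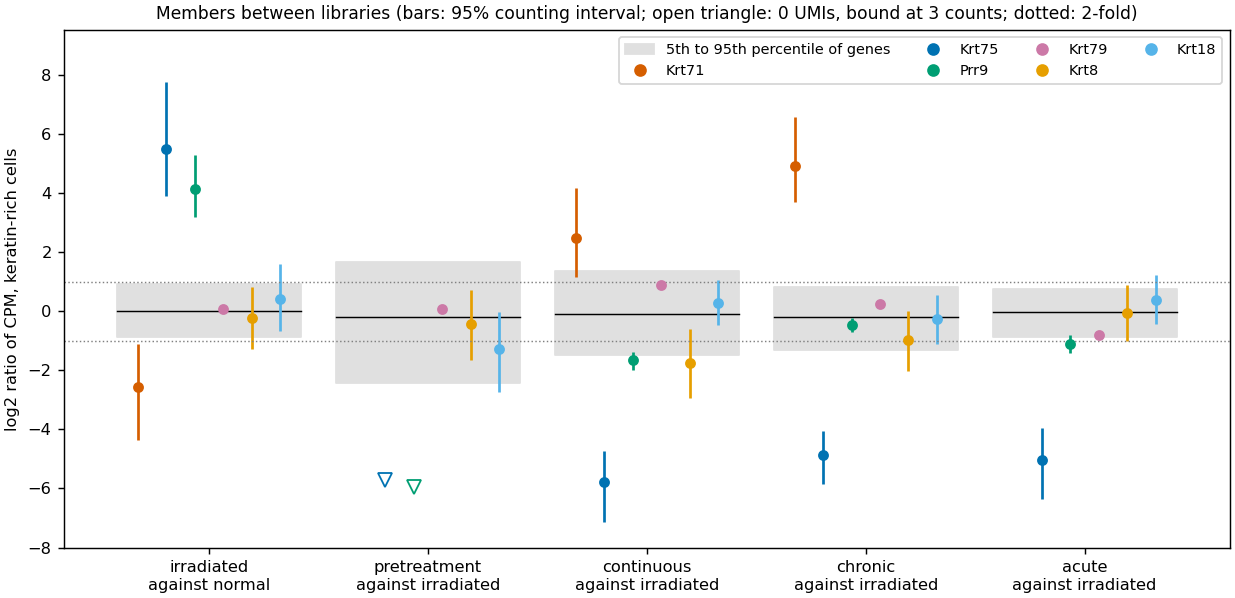
Log2 ratio of CPM in keratin-rich cells (y axis) for the 6 members with at least 20 UMIs, in the 5 comparisons, with 95% counting bars; grey bands span the 5th to the 95th percentile of all genes measured, black lines their median, and open triangles are bounds where the count was 0. Krt75 and Krt71 lie far outside the bands on the UMIs of a few cells, and Krt79 stays inside them.

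The genes whose RNA followed a member most closely from cell to cell were taken over the 1136 keratin-rich cells, after centring each library, with a Pearson r of at least 0.3. Krt71 went with Krt25 (r = 0.45) and Krt28 (r = 0.37), both its partner keratins. Krt79 went with Me1 (0.56), the malic enzyme, Sdr16c6 (0.56), Psapl1 (0.54), Aadac (0.51), an esterase, and Scd1 (0.51), a fatty acid desaturase. Prr9 went with Epgn, the EGF receptor ligand epigen, at 0.31. Krt75 and Krt18 had no gene at that level, and Krt8, Krt19 and Krt7 had too few UMIs. The cells share library and depth within each library, so these values describe the cells and carry no test.

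The genes nearest to Krt79 differed between both types of carrier. In sebaceous-type Krt79 carriers Me1 stood at 526 CPM, Sdr16c6 at 547, Psapl1 at 670 and Aadac at 291, and in infundibulum-type carriers at 61.4, 42.8, 59.9 and 41.7. These 4, which the split did not use, were higher in the sebaceous type, while Krt79 itself was higher in the infundibulum type.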

How the data were processed

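Cells of 6 skin samples were digested with collagenase and put through droplet-based 3' single-cell RNA sequencing, per the labels' protocols. The deposited matrices hold raw UMI counts per gene and barcode, made by the authors with Cell Ranger 6.0.0, per the file headers. The submitters' processing notes also name Seurat 5.0.1 and the pig build Sscrofa11.1, whereas all gene identifiers are mouse. Cells with at least 500 UMIs, 300 genes and at most 20% mitochondrial UMIs were kept, which left 17949915 to 54335535 UMIs per library. Doublets were kept. Scrublet (scanpy 1.11.5) was run as an alternative. Its own threshold marked 22.0% of cells in irradiated and 2.05% in continuous. In the other libraries it marked 0% to 0.334%, and a fixed share with the highest scores was marked instead. That share was 10.0% in normal and acute, 7.78% in chronic and 1.47% in pretreatment. Doublet counts pooled over libraries thus rest on rules that differ by library. UMIs were summed per library over keratin-rich cells and ratios were formed between CPM values. With 1 library per label nothing was tested. Genes with at least 20 UMIs over both sums count as measured, and a 2-fold ratio as a call. The ratio script was tested on simulated independent Poisson counts. These hold no single cells with most of a gene's UMIs, so the test does not cover that case.

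The members and the 24 gene lists were chosen with earlier results of these data known, and Krt74 of the inner root sheath list was unmatched. Genes named were the members, Krt14 and Krt5, the 5 genes most like each member where r was at least 0.3, and up to 2 genes per list and direction past 2-fold whose interval left out 1. Other list genes named beside a count, the genes described within carrier cells and both carrier splits were chosen after their values were seen. Samples came in 1 group per label. Alternatives changed the cell gate, filters, doublets, scaling, depth and the cells richest in a member. Reference sequences of the mouse genes were not used here.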

Additional observations from a re-analysis of the deposited data

How the results depend on the processing

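No paired analysis was possible because each label holds 1 library. The number of members at least 2-fold higher or lower was 3 of 6 measured for irradiated against normal. Against irradiated it was 3 of 5 for pretreatment, 4 of 6 for continuous, 2 of 6 for chronic and 2 of 5 for acute. Of all genes measured, 7.89%, 34.6%, 21.1%, 11.9% and 5.95% were, in the same order. The shares of all genes under the alternatives are not given beside the counts below. Those counts are therefore not read as a result about the members. Requiring Krt14 plus Krt5 to be at least 0.5% of UMIs gave 1 for irradiated against normal, 1 for continuous, 0 for chronic and 1 for acute. At least 1 UMI, and at least 3 UMIs, of these keratins each gave 1 for acute. All kept cells, a choice added after the data were seen, gave 5 for irradiated against normal, 8 for pretreatment, 6 for chronic and 6 for acute. Counting genes from 1 UMI gave 5 for pretreatment and 4 for chronic. Thinning to 1000 UMIs gave 1 for irradiated against normal, pretreatment and continuous, and 0 for chronic and acute. After thinning only Prr9 and Krt79 still had at least 20 UMIs over both sums, so the other members could not be called. Without the 5 cells richest in each member the counts were 1 for irradiated against normal, 2 for continuous, and 0 for chronic and acute. Krt71 and Krt75 then had under 20 UMIs in every comparison and could not be called. The remaining settings moved no count by over 1.5 times. Beyond this loss of measured members, the cause of the changes was not tested.

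Of 309 log2 ratios recomputed under an alternative, 206 stayed within their counting interval, 97 moved outside it and 6 turned direction. All kept cells gave 2.23 for Krt71, irradiated against normal, and against irradiated -0.052 for Krt71 and 0.46 for Prr9 in continuous. The 0.5% gate gave 0.32 for Prr9 in continuous, UMIs per cell 0.29 for Krt18 in pretreatment, and thinning 0.14 for Prr9 in acute. The 28 ratios from all deposited barcodes stayed within their intervals, as did 24 of 28 without doublets. By contrast, 15 of 18 moved outside after thinning, 21 of 28 in all kept cells and 12 of 28 in cells with at least 1 UMI of Krt14 or Krt5. Of 109 named list gene ratios recomputed without the cell richest in that gene in each library, also added after the data were seen, 2 turned direction, to 0.45 for Krt25 in irradiated against normal and to -1.78 for Dct in chronic. Pretreatment, with 55 keratin-rich cells, has an interval of up to 6.49% where 0 cells had a UMI.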
